A study of Mus musculus with 40 samples.

Results

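*Cwc22* and 7 neighbouring genes of mouse chromosome 2, *Cerkl*, *Ube2e3*, *Itga4*, *Zfp385b*, *Ssfa2*, *Ppp1r1c* and *Nckap1*, were followed through the brain transcriptomes of gnotobiotic mice, 8 of the 47643 genes counted. *Cwc22* was chosen on its counts in these libraries, which differed between cohorts and between the conditions, so its own values are given as a description with no test. The other 7 genes entered by their position. All 8 were found in the count tables by Ensembl identifier, and *Ssfa2* carries the symbol *Itprid2* in the GENCODE M21 annotation.

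Recipients were wild-type Swiss Webster mice raised germ-free, a stock that is not inbred. According to the study's methods they were juvenile females fed a control diet, and each library pools several mice of a cohort. Each cohort was gavaged with stool that 1 of 10 human donors gave before a clinical ketogenic diet (pre-KD) or during it (post-KD), and hippocampus and frontal cortex were dissected within days. The 40 libraries are 10 per region and condition, with 1140756 to 2095352 reads counted on genes per library. A pool hides the spread between its mice, so p values within a region measure the spread between cohorts. Between regions they measure the spread between libraries, with both libraries of a cohort taken as independent in the main fit. In bulk tissue fewer cells of a type cannot be told apart from less RNA per cell. The hippocampal markers were higher in hippocampus than in frontal cortex for 4 of 4 genes, and frontal cortical markers were lower there for 2 of 4. Frontal cortex also carried more of the striatal list (4 of 4 genes tested), and hippocampus more of the choroid plexus list (4 of 5).

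CWC22 is a spliceosome-associated protein that recruits the helicase EIF4A3 and so starts the assembly of the exon junction complex, the mark left on spliced messenger RNA. *Cwc22* sequence is known to vary in copy number among mice. Neither the copy number nor the place of any further copies was measured here. The question put to the neighbours was whether their counts follow the cohorts in which *Cwc22* is high.

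The 8 genes lie between 77410634 and 80581380 on chromosome 2 (mm10 coordinates from GENCODE M21). *Cwc22* (ENSMUSG00000027014) runs from 77881159 to 77946375 on the minus strand. *Zfp385b*, which encodes a zinc finger protein, starts at -0.471 Mb from the start of *Cwc22*. On the other side follow *Ube2e3*, an E2 ubiquitin-conjugating enzyme, at 0.987 Mb, *Itga4*, the integrin alpha 4 chain of leukocytes, at 1.37 Mb, and *Cerkl*, a ceramide kinase-like gene best known from the retina, at 1.45 Mb. *Ssfa2*, whose product binds inositol trisphosphate receptors, starts at 1.75 Mb, *Ppp1r1c*, an inhibitor of protein phosphatase 1, at 1.83 Mb, and *Nckap1*, a subunit of the actin-regulating WAVE complex, at 2.62 Mb.

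*Cwc22* shares sequence with other annotated genes, which bears on what its counts hold. Of the 7073 different 69-base words in its transcripts, 954 (13.5%) also occur in another gene. Most of these are in 7 predicted genes that lie 6.07 Mb away, between 83955693 and 83993045, each 2493 bases long and each sharing 835 words with *Cwc22*. A gapped local alignment with the *Cwc22* transcript that has the longest coding sequence placed 2474 bases of each, of which 98.4% were identical. All 7 predicted genes were at 0 counts in all 40 libraries. They hold only 2 distinct transcript sequences, so a read from them can match several of them equally. Their 0 counts thus need not mean that they were silent. How reads that match several genes were counted is not given in the sources used here. A stretch of 150 bases, coding bases 24 to 173 of *Cwc22*, is shown with capitals where it differs from the predicted gene *Gm13691*. At these 4 differences a short read could match one sequence and not the other.

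Cwc22: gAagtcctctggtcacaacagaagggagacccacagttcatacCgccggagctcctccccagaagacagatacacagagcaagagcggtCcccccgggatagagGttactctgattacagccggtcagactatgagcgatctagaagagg
Gm13691: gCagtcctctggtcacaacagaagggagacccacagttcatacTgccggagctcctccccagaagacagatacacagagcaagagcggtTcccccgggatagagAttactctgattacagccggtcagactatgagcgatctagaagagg

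*Cwc22* differed widely from cohort to cohort. In the hippocampus it had 48, 20, 7, 4, 21, 7, 10, 25, 0 and 36 counts in the pre-KD libraries of donors 1 to 10, and 30, 155, 39, 498, 62, 1, 0, 154, 360 and 39 in the post-KD libraries. In the frontal cortex the pre-KD libraries had 31, 4, 15, 16, 12, 17, 23, 3, 0 and 37 counts and the post-KD libraries 47, 228, 14, 491, 7, 63, 65, 185, 274 and 15. The highest counts of both regions belonged to the post-KD cohorts of donors 4, 9, 2 and 8, and the pre-KD cohort of donor 9 was at 0 in both regions. A count of 0 there allows up to 2.03 CPM (counts scaled to library size) in the hippocampus and 2.01 CPM in the frontal cortex, from counting error alone.

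In normalized values *Cwc22* had 11.4 ± 9.85 CPM pre-KD and 85.2 ± 101 CPM post-KD in the hippocampus (SD, n = 10), with medians of 9.30 and 41.8 CPM. In the frontal cortex it had 9.66 ± 7.88 and 77.8 ± 87.6 CPM (SD, n = 10), with medians of 8.27 and 39.9 CPM. The ranges of the conditions overlapped in both regions. For a given donor *Cwc22* was higher post-KD than pre-KD in 7 of 10 donors in the hippocampus and in 6 of 10 in the frontal cortex, and in both regions for 4 donors.

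**Figure D1:**
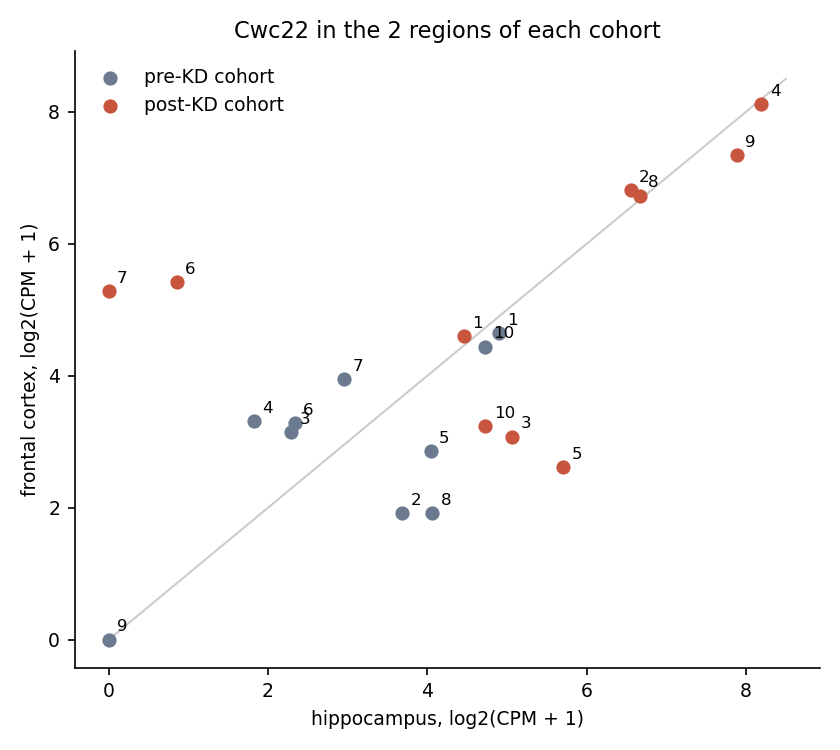
*Cwc22* in hippocampus (x axis) and frontal cortex (y axis) of the 20 cohorts, as log2(CPM + 1), with 1 point per cohort numbered by donor and coloured by condition, and a grey line where both regions are equal. The post-KD cohorts of donors 2, 4, 8 and 9 are high in both regions, while the post-KD cohorts of donors 6 and 7 are high in frontal cortex and near 0 in hippocampus.

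The regions of a cohort did not always match. Post-KD cohort 6 had 0.807 CPM in hippocampus and 41.7 CPM in frontal cortex, and post-KD cohort 7 had 0 and 38.0 CPM. Post-KD cohort 5 went the other way, with 51.1 CPM in hippocampus and 5.11 CPM in frontal cortex. Over the 20 cohorts the log2 CPM of *Cwc22* in the regions had a Pearson r of 0.59 and a Spearman rho of 0.42, and r was 0.36 without the 2 cohorts farthest from the hippocampal median. The points of this correlation share donor, condition and cohort. Among 9928 genes averaging at least 10 counts per library in both regions the median r was 0.01, 201 genes (2.02%) had an r of 0.5 or more, and *Cwc22* ranked 69. For *Ube2e3*, *Itga4*, *Zfp385b* and *Nckap1* r lay between -0.12 and -0.01 over the same cohorts. The total count of a library had an r of 0.01 with *Cwc22* in hippocampus and 0.29 in frontal cortex.

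The neighbours spanned a wide range of levels. Per kilobase of exon, *Nckap1* was the highest, at 39.0 CPM per kb in hippocampus and 40.6 in frontal cortex, followed by *Ube2e3* (15.9 and 13.9), *Cwc22* (7.08 and 6.41 over both conditions), *Zfp385b* (2.83 and 4.72), *Itga4* (1.98 and 0.856) and *Ssfa2* (0.979 and 0.998). The place of *Cwc22* in this order came from the post-KD libraries, since pre-KD it had 1.68 and 1.42 CPM per kb, against 2.86 and 4.11 for *Zfp385b* and 1.72 and 1.02 for *Itga4*. *Cerkl* (0.236 and 0.375) was sparse, with counts in 4 of 20 hippocampal and 5 of 20 frontal cortical libraries. *Ppp1r1c* had 13 counts in a single hippocampal library, that of post-KD donor 5, and 0 counts elsewhere. The labels and methods name a TruSeq kit, while a resources list of the study names a kit that reads transcript ends, for which levels per length would not apply.

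**Figure D2:**
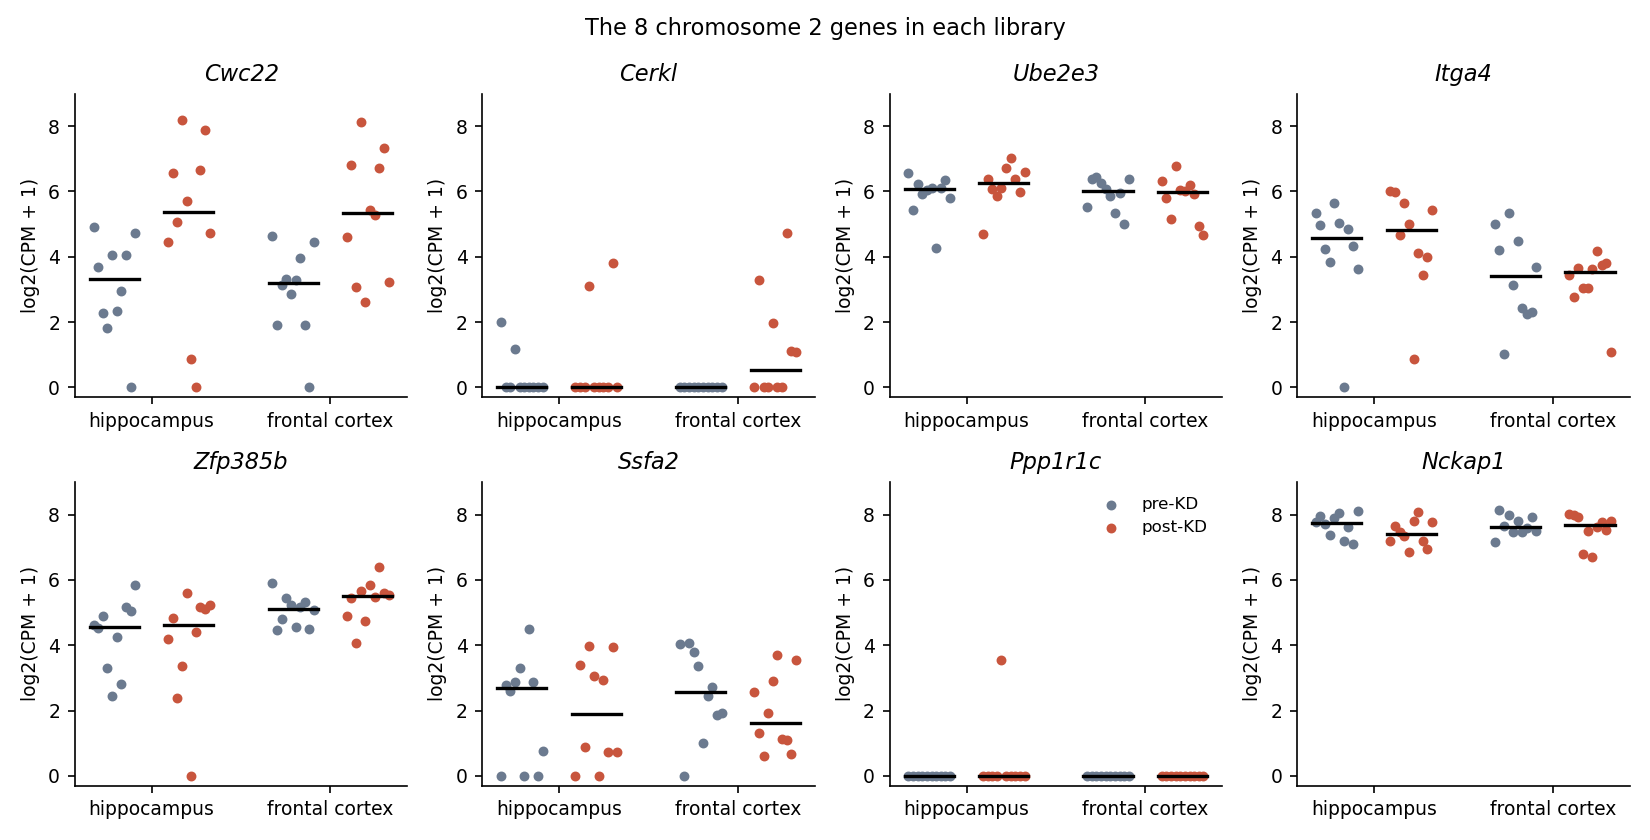
The 8 genes in every library, as log2(CPM + 1), by region and condition, with 1 point per library in donor order and a bar at the median of 10 libraries. *Cwc22* spreads from 0 to over 8 on this scale post-KD, while *Nckap1* stays between 103 and 279 CPM, *Ube2e3* between 18.2 and 129 CPM, and *Cerkl* and *Ppp1r1c* are at 0 in most libraries.

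*Nckap1* had 135, 213 and 274 CPM (lowest, median, highest) pre-KD and 114, 169 and 269 CPM post-KD in hippocampus. In frontal cortex it had 142, 195 and 279 CPM pre-KD and 103, 206 and 259 CPM post-KD. *Ube2e3* had medians of 66.4 CPM pre-KD and 75.2 CPM post-KD in hippocampus, and of 63.8 and 61.7 CPM in frontal cortex. The groups overlapped for both genes. In the post-KD cohorts of donors 2, 4, 8 and 9, the highest for *Cwc22*, hippocampal *Nckap1* was 201.5, 160.4, 145.9 and 121.8 CPM and hippocampal *Ube2e3* 82.8, 56.8, 83.1 and 62.2 CPM, on both sides of the median of their group.

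*Zfp385b*, the nearest neighbour, had 4.42, 22.7 and 56.3 CPM pre-KD and 0, 23.8 and 47.8 CPM post-KD in hippocampus. In frontal cortex the values were 20.9, 33.9 and 59.1 CPM pre-KD and 15.9, 44.5 and 83.6 CPM post-KD, the highest in the post-KD cohort of donor 8. *Itga4* had 0, 23.4 and 49.4 CPM pre-KD and 0.807, 27.8 and 63.5 CPM post-KD in hippocampus, against 1.04, 9.79 and 39.7 CPM and 1.13, 10.6 and 16.9 CPM in frontal cortex. *Ssfa2* was low in both regions, with pre-KD and post-KD means of 5.47 ± 6.54 and 5.49 ± 5.91 CPM in hippocampus and 6.99 ± 5.95 and 4.19 ± 4.25 CPM in frontal cortex (SD, n = 10). The conditions overlapped for all 3 genes.

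None of the neighbours passed the adjusted threshold when post-KD cohorts were set against pre-KD ones. In edgeR's quasi-likelihood test with Benjamini-Hochberg adjustment over all genes, 0 of 7 neighbours tested in hippocampus had an adjusted p under 0.05, where 1 of 17529 genes did (0.0057%), and 0 of 6 in frontal cortex, where 1 of 17873 did (0.0056%). The 1 gene in each count was *Cwc22*, which was chosen on this contrast, so nothing is read from these shares. DESeq2 called 0 neighbours in either region, and 0 and 2 of all genes. At an unadjusted p under 0.05, 1 neighbour passed in each region, against 10.1% of all genes in hippocampus and 9.68% in frontal cortex. These were *Ppp1r1c* in hippocampus (p = 0.0027, adjusted p = 0.077 in edgeR), which rests on 1 library, and *Cerkl* in frontal cortex (p = 0.00018, adjusted p = 0.122 in edgeR). Both were at 0 in all pre-KD libraries of the region and passed the filter on low counts only through the post-KD ones, which fixes their direction, so neither count supports a change of the neighbours. The median log2 change of the neighbours was 0.31 in hippocampus and -0.08 in frontal cortex, with medians over all genes of -0.01 and 0.01.

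To ask whether the neighbours follow the cohorts with much *Cwc22*, each gene was regressed on the log2 CPM of *Cwc22* in the other region of the same cohort, which keeps the noise of 1 library out of both sides. The slope is the log2 change of a gene per log2 unit of *Cwc22* in the other region. *Cwc22* itself, the reference for a gene that follows it fully, had a slope of 0.71 (SE 0.10) in hippocampus and 0.45 (SE 0.08) in frontal cortex, given as a description. *Ube2e3* had slopes of 0.03 (SE 0.07) and 0.01 (SE 0.05), *Nckap1* of -0.02 (SE 0.05) and -0.02 (SE 0.03), *Zfp385b* of -0.04 (SE 0.13) and 0.07 (SE 0.06), *Itga4* of 0.05 (SE 0.12) and -0.08 (SE 0.13), and *Ssfa2* of 0.22 (SE 0.27) and -0.23 (SE 0.22). These 5 genes had unadjusted p from 0.222 to 0.883 in edgeR. For the abundant *Nckap1* and *Ube2e3* the slope lay within 1 SE of 0 in both regions. Of the marker lists, 1 gene passed the adjusted threshold along *Cwc22*, *Ttr* of the choroid plexus in hippocampus (adjusted p = 0.0411 in edgeR), where the summed list ran from 684 to 2524 CPM pre-KD and from 490 to 4349 CPM post-KD. Its part in the slopes was not tested.

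*Cerkl* had larger slopes, from few counts. In frontal cortex its slope was 1.42 (SE 0.31, adjusted p = 0.0053 in edgeR), 1 of 6 neighbours tested, where 1.38% of all genes passed the adjusted threshold and 7.45% the unadjusted 0.05. All its frontal cortical counts are in post-KD libraries, through which alone it passed the filter on low counts and among which *Cwc22* is highest, so the sign of this slope is largely fixed and the call is not read as support that the neighbours follow *Cwc22*. In hippocampus its slope was 0.99 (SE 0.32, p = 0.0023, adjusted p = 0.095 in edgeR), and 0 of 7 neighbours passed, against 1.93% of all genes. Without adjustment 2 of 7 passed there, *Cerkl* and *Ppp1r1c*, against 8.88% of all genes. *Ppp1r1c* had a slope of -0.90 in hippocampus (SE 0.29, p = 0.0032, adjusted p = 0.118 in edgeR), again from 1 library. These 2 genes thus had opposite signs, and both passed the filter on low counts only through post-KD libraries, so neither is read as support.

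The counts of *Cerkl* were few. In hippocampus it had 5 counts in the pre-KD cohort of donor 1, 2 in that of donor 4, 13 in the post-KD cohort of donor 4 and 20 in that of donor 9. In frontal cortex all 10 pre-KD libraries were at 0, and the post-KD libraries of donors 2, 5, 8, 9 and 10 had 18, 4, 45, 2 and 2 counts. The libraries with most *Cerkl* thus came from cohorts with much *Cwc22*, but from donors 4 and 9 in hippocampus and from donors 8 and 2 in frontal cortex. In hippocampus, too, *Cerkl* passed the filter only through post-KD libraries (33 counts, against 7 pre-KD), among which *Cwc22* is highest. The overlap is therefore given as a description. The frontal cortical library of post-KD donor 4, with the most *Cwc22* of its region, had 0 counts of *Cerkl*. The post-KD library of donor 8 held 45 of the 71 frontal cortical counts.

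The *Cerkl* call in frontal cortex did not hold in every fit. Its adjusted p was 0.524 with the diet condition as a covariate, 0.527 in post-KD cohorts alone, 0.186 on *Cwc22* of the same library and 0.0699 without the post-KD cohort of donor 8 (edgeR). With the donor as a replicate block it was 0.9998. *Cerkl* overlaps *Itga4* and shares 991 of its 5534 words (17.9%) with it and 134 with *Neurod1*, so reads from the shared stretches cannot be assigned to 1 gene by sequence. Whether such reads contribute to the *Cerkl* counts was not tested.

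**Figure D3:**
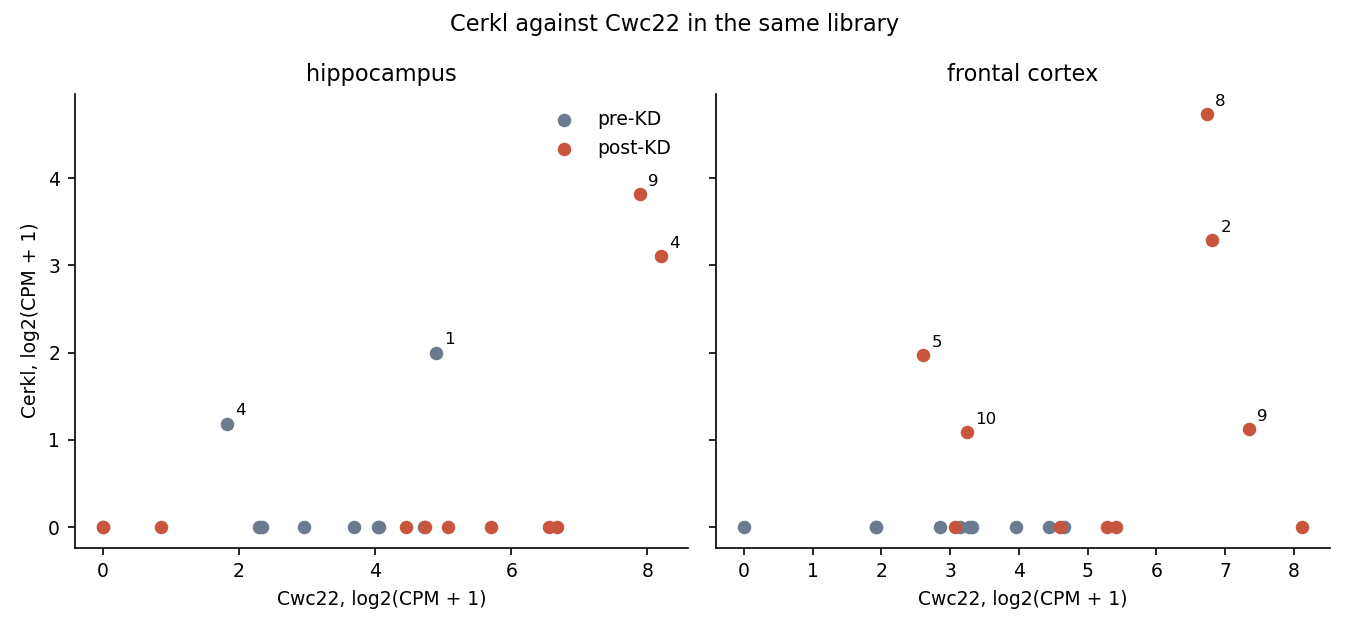
*Cerkl* (y axis) against *Cwc22* (x axis) in the same library, as log2(CPM + 1), for 20 hippocampal and 20 frontal cortical libraries coloured by condition, with donor numbers where *Cerkl* is above 0. Most libraries lie at 0 for *Cerkl*, and the highest points are donors 9 and 4 in hippocampus and donors 8 and 2 in frontal cortex.

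The wider neighbourhood was similar. Between the outermost members the annotation holds 28 further genes, of which 22 were at 0 counts in every library and 4 averaged at least 10 counts in a region. These were *Neurod1*, a neuronal transcription factor, *Pde1a*, a calmodulin-dependent phosphodiesterase, *Dnajc10*, a chaperone of the endoplasmic reticulum, and *Frzb*, a secreted Wnt antagonist. Their slopes ran from -0.14 (*Frzb*, SE 0.19) to 0.13 (*Dnajc10*, SE 0.06, p = 0.0474, adjusted p = 0.552 in edgeR), both in hippocampus. Within 10 Mb of *Cwc22* on either side, 2 of 115 other genes tested in hippocampus passed the adjusted threshold (1.74%) and 2 of 113 in frontal cortex (1.77%), *Cerkl* being 1 of the latter, close to the share of all genes, and none of these genes did so in both regions. Genes called by the slope were mostly sparse, since 97.0% of them in hippocampus and 95.5% in frontal cortex had counts in 5 libraries or fewer, against 17.2% and 14.4% of all genes tested.

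**Figure D4:**
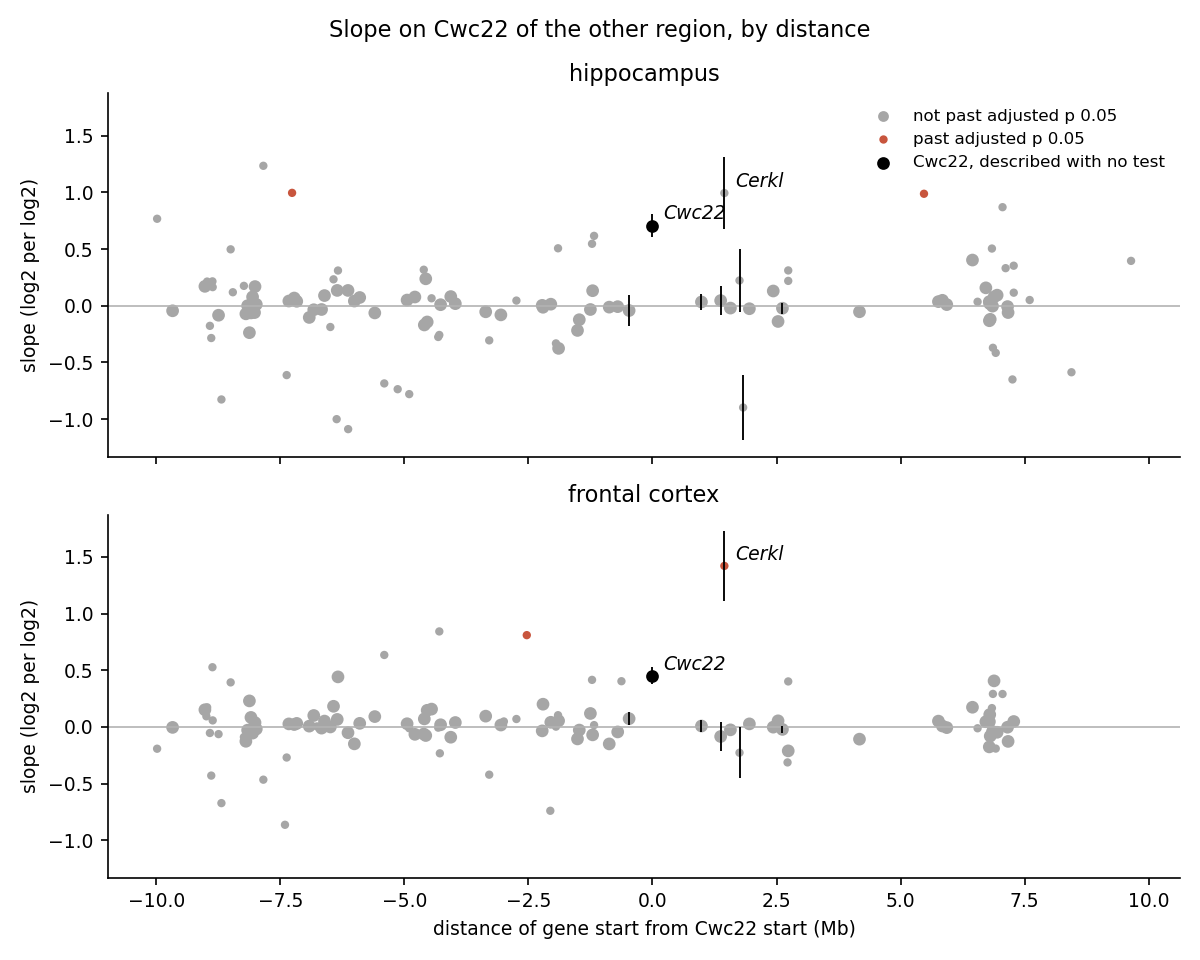
Slope of each chromosome 2 gene on *Cwc22* of the other region (y axis, log2 per log2) against the distance of its start from that of *Cwc22* (x axis, Mb), in hippocampus and frontal cortex, with large points for genes averaging 10 counts or more, red for an adjusted p under 0.05, black for *Cwc22*, which is described with no test, and bars of 1 SE for the 8 genes. The other large points lie between -0.38 and 0.40 in hippocampus and between -0.21 and 0.44 in frontal cortex, with 0 of them past the threshold, and the slopes of *Cerkl* (0.99 and 1.42) belong to small points.

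Genes whose profile was most like that of *Cwc22* were not its neighbours. By the lower of the Pearson r with *Cwc22* in the regions, over 20 cohorts and 9927 genes, the leading 5 were *Vcp-rs* on chromosome X (r = 0.79 in hippocampus and 0.59 in frontal cortex), *Cntn5* on chromosome 9 (0.57 and 0.58), *Mrpl13* on chromosome 15 (0.49 and 0.60), *Ahi1* on chromosome 10 (0.49 and 0.51) and *Fbxl5* on chromosome 5 (0.66 and 0.48). These correlations compare genes within the same libraries and are given as a description. Among the neighbours abundant enough to be ranked, *Zfp385b* came at 192 (0.28 and 0.66), *Itga4* at 472 (0.38 and 0.21), *Ube2e3* at 5217 (-0.14 and 0.18) and *Nckap1* at 9325 (-0.36 and -0.43).

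Genes that work with CWC22 did not pass the adjusted threshold. Of 5 exon junction complex core genes, 7 peripheral genes and 16 spliceosome partners, all tested, 0 rose and 0 fell between the conditions or along *Cwc22* in either region (edgeR, adjusted over all genes). At an unadjusted p under 0.05 there were 4 results in those fits, 1 and 0 of 28 genes between the conditions and 2 and 1 of 28 along *Cwc22* in hippocampus and frontal cortex. These shares are below those of all genes (10.1%, 9.68%, 8.88% and 7.45%). *Pnn*, a splicing-associated gene of the periphery, had a log2 change of 0.47 (SE 0.22, p = 0.0384) post-KD in hippocampus. *Rbm8a* of the core and *Rnps1* of the periphery had slopes of -0.13 (SE 0.06, p = 0.0255) and -0.39 (SE 0.14, p = 0.0072) in hippocampus, and *Acin1* one of -0.06 (SE 0.03, p = 0.0487) in frontal cortex (edgeR).

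Between the regions, which the choice of genes did not use, *Cwc22* had a log2 difference of 0.15 in favour of hippocampus (SE 0.38), given as a description. *Itga4* was higher in hippocampus (27.8 ± 18.6 CPM) than in frontal cortex (11.96 ± 9.77 CPM, SD, n = 20), a log2 difference of 1.19 (SE 0.39, adjusted p = 0.0328 in edgeR). Over all genes, 9.96% of 19422 passed. *Ppp1r1c* also passed (adjusted p = 0.0261 in edgeR), but only through 13 counts in 1 hippocampal library, without which it would not have been tested, so its call is not read as a difference between regions. *Zfp385b* had a log2 difference of -0.75 (SE 0.29, adjusted p = 0.0908 in edgeR), with the higher level in frontal cortex. With the cohort as a replicate block the adjusted p of *Itga4* was 0.225 and that of *Ppp1r1c* 0.775 (edgeR). Without donor 1, 2, 3, 5 or 10 that of *Itga4* lay between 0.0525 and 0.115. Beside *Itga4*, 1 of 5 genes tested of the leukocyte and microglia list was higher in hippocampus, *Itgb7*, with counts in 2 hippocampal libraries and 1 frontal cortical library, and the summed list ran from 69.3 to 234 CPM in hippocampus and from 96.1 to 209 CPM in frontal cortex. Its part in the result was not tested. *Neurod1* and *Pde1a* in the same interval were higher in hippocampus as well (log2 differences of 1.22 and 0.34, adjusted p = 0.0108 and 0.0311 in edgeR).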

How the data were processed

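The authors deposited unnormalized counts per Ensembl gene, 1 table for each region, which the study's methods describe as reads aligned to mm10 with STAR 2.5.2a and counted with HTSeq 0.6.0. The annotation release and strand setting used for counting are not given in the sources used here. All 40 columns were used, and 47224 identifiers matched GENCODE M21 while 419 did not. The filter was 10 counts summed over a fit, and the test edgeR 4.0.16 (R 4.3.3), quasi-likelihood with TMM, two-sided, with Benjamini-Hochberg adjustment over all genes and a threshold of 0.05. CPM are TMM-normalized, and log2 CPM use a prior count of 2. Post-KD was compared with pre-KD in each region, each gene was fitted on *Cwc22* of the other region, and regions were compared with the diet condition as a covariate. The alternatives were DESeq2 1.42.0, RLE size factors, other filters, replicate blocks, subsets of cohorts and leaving out replicates. The 8 members, their neighbours with enough counts, the 5 genes most like *Cwc22*, and up to 3 genes for each of the lists were named by rule. Genes and lists were chosen with earlier results of these data known. Donor numbers pair the cohorts by design, but after removal of condition means both libraries from 1 donor correlated at -0.03 to 0.02 in both regions. Hippocampus and frontal cortex libraries of 1 cohort correlated at -0.03 to 0.18, with 1 of 20 pairs above 0.1. The slopes on *Cwc22* of the other region rest on this pairing, which the libraries themselves show weakly. No 2 libraries of a group were identical. The scripts were tested on simulated data.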

Additional observations from a re-analysis of the deposited data

Results flagged for a closer look

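Among 28 sets of 10 libraries (a gene in 1 region and condition, leaving out sets at 0 throughout), 6 had an extreme library set apart from the rest, by Dixon's ratio of gap to range on the log2 scale. Chance alone gives about 1 in 20 where values vary freely, which sets with many libraries at 0 do not. *Itga4* was lowest, at 0 CPM, in hippocampus of pre-KD donor 7, at 0.807 CPM in hippocampus of post-KD donor 6 and at 1.13 CPM in frontal cortex of post-KD donor 10. *Ube2e3* was lowest at 18.2 CPM in hippocampus of pre-KD donor 7 and at 25.1 CPM in hippocampus of post-KD donor 1. *Ppp1r1c* reached 10.7 CPM in hippocampus of post-KD donor 5 and was at 0 in the other libraries, so its ratio is fixed by construction. The hippocampal library of pre-KD donor 7 was thus the lowest for both *Itga4* and *Ube2e3*.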

How the results depend on the processing

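Sparse counts limit *Cerkl*, *Ppp1r1c* and *Ssfa2*, and pooling hides the spread between mice. Between the conditions the number of neighbours called was 0 in each region, and 1 in hippocampus with no filter beyond 1 count (*Ppp1r1c*, adjusted p = 0.0449 in edgeR, in a fit that called 1291 genes in all), and 1 in each region at an unadjusted p under 0.05. With the replicate block it was 0 in both. Along *Cwc22* the hippocampal number was 0, rising to 2 with the rank of *Cwc22* (*Cerkl* and *Ppp1r1c*), and 0 to 1 when single cohorts were left out: 1 without pre-KD donor 4 (*Cerkl*) or pre-KD donor 9 (*Ppp1r1c*). The frontal cortical number was 1 (*Cerkl*). It was 0 where *Cerkl* could not be called: DESeq2 (which gave it no adjusted p), filterByExpr (which removed it) and pre-KD cohorts alone (where all its counts are 0). It was also 0 with the replicate block, the diet condition as a covariate, post-KD cohorts alone and *Cwc22* of the same library. Leaving out single cohorts gave 0 to 1, with 0 without post-KD donor 8. Between regions 2 members were called, 1 with DESeq2, 0 with filterByExpr, the replicate block, pre-KD or post-KD cohorts alone, and 0 to 2 when donors were left out, with 0 without donor 5 and 1 without donor 1, 2 or 3. Without donor 10 it was 2, with *Itga4* lost and *Zfp385b* gained (log2 difference -0.92, adjusted p = 0.0478 in edgeR). The cause was not tested.

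Direction changed only for values that had not passed the threshold, and *Cwc22* kept its direction between conditions and along *Cwc22* in the alternatives run, as a description with no test of those values. For *Ssfa2* between conditions in hippocampus the log2 change became -0.0032 with DESeq2, -0.0044 with RLE size factors and -0.21 with the replicate block. Along *Cwc22* in hippocampus the slope of *Ube2e3* became -0.0254 with the diet condition as a covariate, -0.0451 in pre-KD and -0.014 in post-KD cohorts alone and -0.0556 on the same library. That of *Itga4* became -0.00019 with the replicate block, -0.0203 with the diet covariate, -0.0722 pre-KD and -0.00032 post-KD. On the same library *Zfp385b* became 0.11 and *Ppp1r1c* 0.83. *Nckap1* became 0.026 with the diet covariate, 0.11 pre-KD and 0.0338 without the 2 cohorts farthest from the median. In frontal cortex *Ube2e3* became -0.0416 with the replicate block, -0.0020 post-KD, -0.0041 on the rank and -0.10 without the 2 farthest cohorts. *Itga4* became 0.0158 with the replicate block, 0.0899 pre-KD and 0.0476 on the same library, *Ssfa2* 0.096 pre-KD, and *Nckap1* 0.0206 post-KD and 0.0300 without the 2 farthest cohorts. Between regions *Cerkl* became -0.0737 with the replicate block and -0.94 post-KD, *Ube2e3* -0.0452 pre-KD, and *Ssfa2* 0.042 with DESeq2, 0.0406 with RLE, 0.0041 with filterByExpr and 0.37 post-KD. Leaving out single cohorts or donors moved the log2 change between conditions from -0.33 to 0.14 for *Zfp385b* and from -0.42 to 0.55 for *Ssfa2* in hippocampus, and from -0.19 to 0.0623 for *Ube2e3* and from -0.18 to 0.0304 for *Nckap1* in frontal cortex. It moved the slope in hippocampus from -0.0187 to 0.0787 for *Itga4*, from -0.0843 to 0.0013 for *Zfp385b* and from -0.0573 to 0.0054 for *Nckap1*, and in frontal cortex from -0.0597 to 0.0392 for *Ube2e3* and from -0.0497 to 0.0113 for *Nckap1*. The difference between regions ran from -0.16 to 1.46 for *Cerkl* and from -0.39 to 0.26 for *Ssfa2*.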
